A study of Mus musculus with 8 samples.

Results

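The 10 genes of the Wnt pathway described here were read in single-cell RNA counts of pancreatic tumors, the 5 ligand genes Wnt4, Wnt5a, Wnt7a, Wnt7b and Wnt10a, the ligand-modifying enzyme Porcn, the secreted inhibitor Sfrp1, the receptor Lgr5, the feedback gene Axin2 and Ctnnb1, which encodes β-catenin. These 10 genes were taken by symbol from the 27775 gene rows of the count tables, and all 10 had counts in both tables. The cells came from 2 tumors, 1 of medium and 1 of large size, of untreated mice of the KPC strain. KPC mice carry alleles, LSL-Trp53R172H/+ among them, that are switched on by Pdx-1-Cre, a Cre recombinase under the Pdx-1 promoter, which is active in pancreatic progenitors, and they develop pancreatic ductal adenocarcinoma. The labels list 4 technical replicates per tumor, pooled in 1 table, so each tumor counted as 1 sample and no value below has a replicate error or a p-value. Tumor size and the single animal or library behind each size cannot be told apart.

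Wnt proteins are secreted ligands that receive a lipid from the enzyme Porcn in the endoplasmic reticulum before the carrier Wls takes them to the cell surface. At the receiving cell they bind Frizzled receptors, and in the β-catenin branch this stops the destruction complex, built on Axin scaffolds, from degrading β-catenin, which then enters the nucleus and acts with TCF/LEF factors on targets such as Axin2 and Lgr5. Secreted Frizzled-related proteins such as Sfrp1 bind Wnt ligands outside the cell, and R-spondins act through Lgr receptors to keep Frizzled receptors at the surface.

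The medium tumor gave 20301669 unique molecular identifiers (UMIs, each standing for 1 captured mRNA molecule) in 2812 cells, and the large tumor 2239012 UMIs in 1533 cells. The median cell held 5456.5 UMIs in the medium tumor and 1037 in the large tumor. Levels are given as UMIs of a gene per 1000000 UMIs of the cells summed (CPM), with exact 95% Poisson intervals. Where a gene had 0 UMIs, the level that 3 UMIs would have is printed as the limit. Intervals and limits cover counting error only. Cells were clustered in each tumor on their own, and clusters were called epithelial-like, monocyte/macrophage-like, stromal-like (fibroblast), mesothelial-like or endothelial-like from marker genes. In the medium tumor 8 of 14 clusters, with 2331 cells (82.9%), were epithelial-like, and in the large tumor 7 of 10, with 1219 cells (79.5%). Cluster 7 of the medium tumor and cluster 1 of the large tumor rested on only 3 of 11 epithelial markers. In cluster 7 the stromal markers summed to 44.2 CPM, against 15276 CPM in the stromal-like cluster 11, and in cluster 1 of the large tumor they summed to 13.3 CPM. The mesothelial-like cluster 10 of the medium tumor had all 6 of its own markers, at 2038 CPM, but also 4 stromal markers, and the stromal list summed to 12577 CPM there. The part of these in its levels of Wnt4, Sfrp2 and Rspo1 was not tested. Clusters 4 and 6 of the large tumor also carried markers of intestinal enterocytes or goblet cells, with 6 of 8 enterocyte markers in cluster 4 and 5 of 6 goblet markers in cluster 6. The tables shared 5 cell barcodes, and mitochondrial genes had 0 UMIs, so RNA quality could not be read from them.

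Promoter sequence was at hand for 4 of the 10 genes. Those of Wnt4 and Wnt7a are shown because these ligands were both high in cluster 8 of the medium tumor, and that of Axin2 because it is the feedback gene of the β-catenin branch. Each runs 5′ to 3′ along the gene's own strand from 250 bases before to 50 bases after the RefSeq start, build GRCm38.p6, at chr4:137277385-137277684 on the plus strand for Wnt4, chr6:91411304-91411603 on the minus strand for Wnt7a and chr11:108920099-108920398 on the plus strand for Axin2. Capitals mark GC boxes (GGGCGG on either strand).
Wnt4: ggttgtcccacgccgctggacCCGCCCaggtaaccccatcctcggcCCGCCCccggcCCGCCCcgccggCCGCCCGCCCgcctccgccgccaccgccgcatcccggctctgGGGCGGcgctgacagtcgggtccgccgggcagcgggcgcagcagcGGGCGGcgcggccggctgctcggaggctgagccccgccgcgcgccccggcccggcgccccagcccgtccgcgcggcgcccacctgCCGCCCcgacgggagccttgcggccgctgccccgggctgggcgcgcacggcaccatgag
Wnt7a: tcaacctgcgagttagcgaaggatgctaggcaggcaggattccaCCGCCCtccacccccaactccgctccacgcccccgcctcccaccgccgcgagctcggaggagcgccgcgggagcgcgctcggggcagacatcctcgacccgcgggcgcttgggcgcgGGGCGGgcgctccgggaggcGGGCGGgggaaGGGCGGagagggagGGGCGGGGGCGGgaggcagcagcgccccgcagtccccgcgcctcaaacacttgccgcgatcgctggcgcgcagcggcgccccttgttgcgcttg
Axin2: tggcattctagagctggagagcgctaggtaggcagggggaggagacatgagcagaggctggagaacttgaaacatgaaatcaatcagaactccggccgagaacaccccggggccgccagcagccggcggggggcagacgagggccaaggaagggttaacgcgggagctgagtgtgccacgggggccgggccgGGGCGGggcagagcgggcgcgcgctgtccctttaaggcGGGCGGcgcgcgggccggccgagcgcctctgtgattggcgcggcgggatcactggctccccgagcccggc
GC boxes were found 8 times in the Wnt4 window, 6 times in that of Wnt7a and 2 times in that of Axin2, and neighbouring copies could overlap. At least 1 was present in 35.7% of 32851 mouse promoters of the same length. The Wnt4 window had a GC content of 84.3% with 51 CpG dinucleotides, against a median of 52.7% and 7 over all promoters. No copy of CTTTGAT or CTTTGAA, letters bound by TCF/LEF factors, was found on either strand in the windows of Wnt4, Wnt7a, Axin2 or Ctnnb1, and 8.65% of all promoters held one.

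The first comparison asked where in the tumor each Wnt gene was seen. In the medium tumor the epithelial-like cells carried more Wnt7b, Wnt10a, Porcn and Wnt7a than all other cells together, and less Sfrp1, Wnt5a and Axin2, each past 2-fold. Wnt4, Lgr5 and Ctnnb1 lay within 2-fold. Thus 4 of the 10 genes were at least 2-fold higher and 3 at least 2-fold lower, while over all 12681 genes with 20 or more UMIs the shares were 14.7% higher and 14.3% lower. The minimum counts both groups together, so a gene can pass it through the group in which it is high, as Wnt10a did with 244 epithelial-like and 7 other UMIs, and such counts are given as a description. The median log2 ratio of the 10 genes was 0.24, and that of all genes tested was 0.17. With cluster 7 counted among the other cells, an alternative added after the data were seen, the log2 ratios of Wnt7b, Porcn and Wnt10a were 0.97, 0.96 and 0.65, below 2-fold, and 4 of the 10 genes stayed past it. At a clustering resolution of 1.2 Porcn and Wnt10a had log2 ratios of 0.96 and 0.64.

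**Figure D1:**
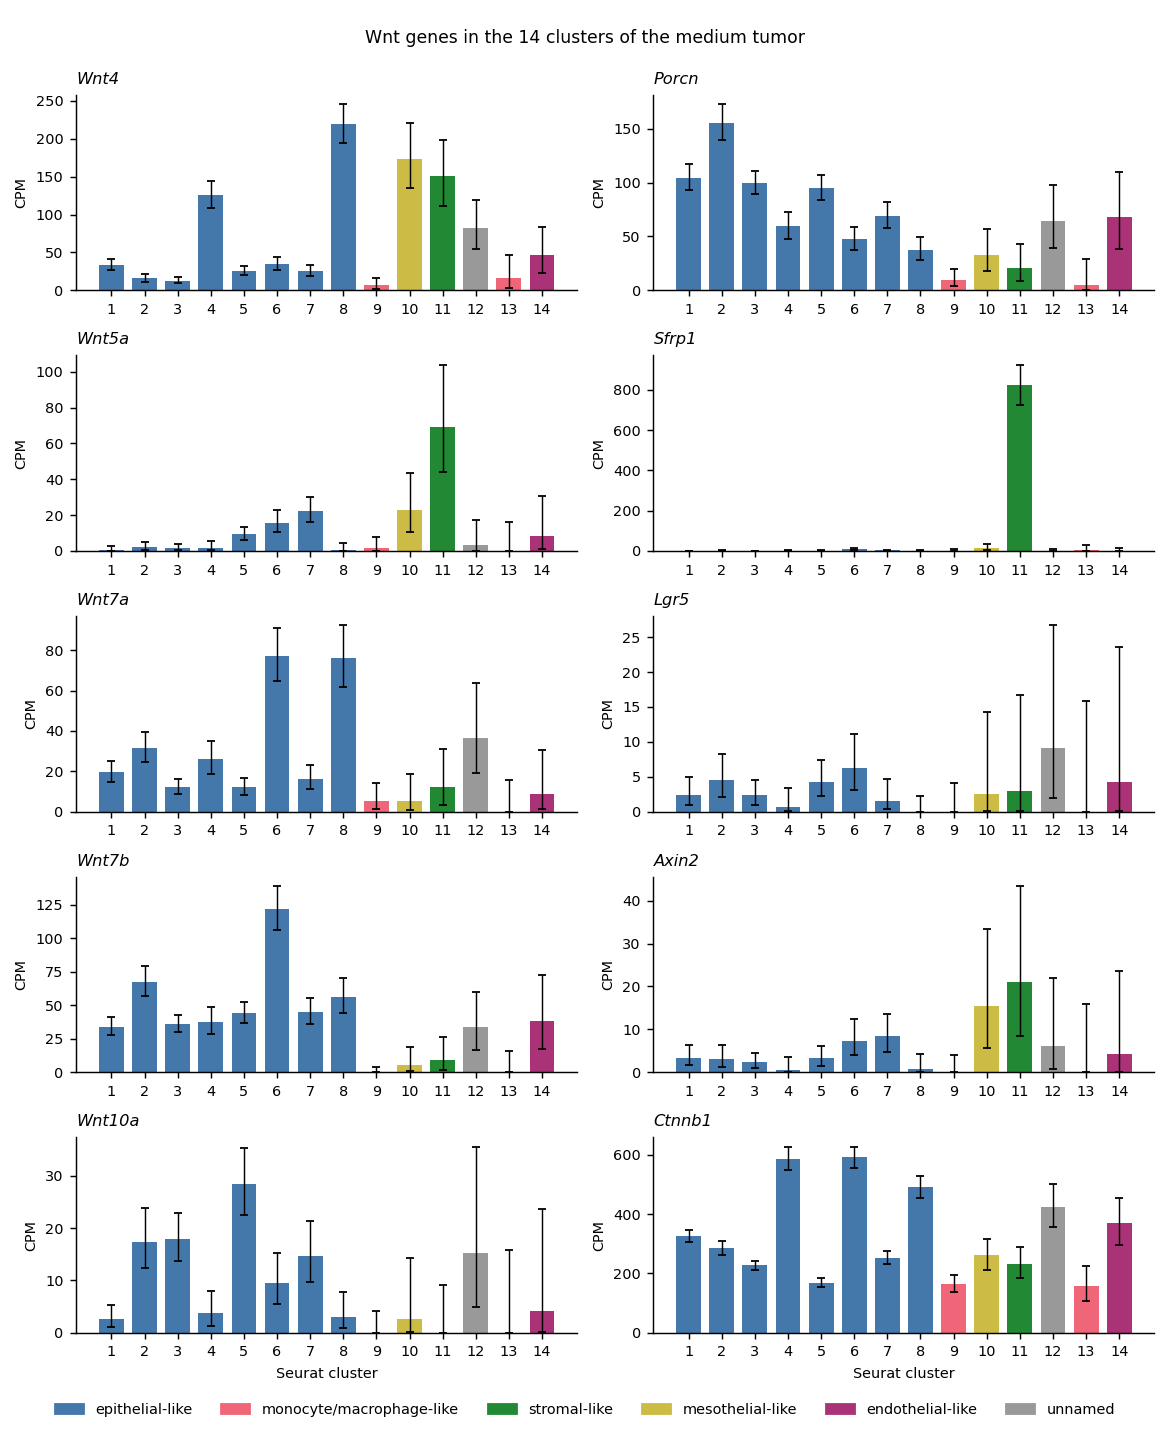
Level of each Wnt gene (CPM, y axis, linear and separate for each gene) in the 14 Seurat clusters of the medium tumor (x axis), with bars coloured by cell class and lines for exact 95% Poisson intervals, or up to the level of 3 UMIs where a cluster had 0. Sfrp1 stood at 822 CPM in the stromal-like cluster 11 and at 15.3 CPM or less elsewhere, and Wnt4 reached 219 CPM in the epithelial-like cluster 8.

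Wnt7b and Wnt7a, closely related ligands, were mostly epithelial. Wnt7b (chr15:85535437-85582473, minus strand, GRCm38, GENCODE M21) stood at 51.7 CPM in epithelial-like cells and 11.3 CPM in the other cells of the medium tumor, a ratio of 4.56 (95% interval 3.07 to 7.09). Of its 960 UMIs 97.4% fell in epithelial-like cells, which held 89.1% of all UMIs. Monocyte/macrophage-like cells had 0 Wnt7b UMIs in 238 cells, which allows up to 3.26 CPM. Among the smaller classes Wnt7b was highest in the endothelial-like cluster 14, at 38.2 CPM (17.5 to 72.5) from 9 UMIs. That cluster also held 4 of 11 epithelial markers, which summed to 4245 CPM there against 670 CPM in the macrophage-like cluster 9, and their part in its Wnt7b level was not tested. Wnt7a (chr6:91363981-91411363, minus strand) followed with 28.4 against 10.9 CPM, a ratio of 2.61 (1.74 to 4.12).

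Within the epithelium both stood high in cluster 6, led by Krt17, Cldn4 and Tnc, which encode a basal-type keratin, a tight junction protein and a matrix protein. Wnt7b reached 122 CPM (106 to 139) there, 2.76 times (2.36 to 3.22) the level of the other epithelial-like cells, and 47.0% of the cells of this cluster had a Wnt7b UMI. The second cluster in the order, cluster 2 at 67.5 CPM (57.1 to 79.1), did not overlap it, and the other 6 epithelial-like clusters lay between 33.7 and 55.7 CPM. Wnt7a stood at 77.1 CPM (64.7 to 91.1) in cluster 6 and at 76.1 CPM (62.0 to 92.5) in cluster 8, which did not differ beyond their intervals. The lowest Wnt7a levels in the epithelium were 12.03 CPM in cluster 5 and 12.1 CPM in cluster 3. Cluster 8 thus shared the high Wnt7a of cluster 6 but not its Wnt7b, which stood at 55.7 CPM (43.8 to 70.0). Over the 14 clusters the levels of these ligands, as log2(CPM + 10), had a Pearson r of 0.81, a description over clusters that share 1 library.

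Wnt10a (chr1:74791516-74804179, plus strand), a ligand best known from teeth and skin appendages, was also epithelial, at 13.5 against 3.17 CPM, a ratio of 4.25 (2.03 to 10.7). It was at 0 UMIs in the monocyte/macrophage-like and stromal-like cells. Its order among epithelial-like clusters was unlike that of Wnt7a, with 28.3 CPM (22.5 to 35.2) in cluster 5, 17.9 CPM in the cycling cluster 3 and 17.4 CPM in cluster 2. Clusters 1, 8 and 4, whose leading genes include gastric and mucosal genes such as Gkn1, Dmbt1 and Tff3, stood lowest, at 2.72, 3.01 and 3.71 CPM. The cluster highest in Wnt10a was led by Yap1, Birc2 and Birc3, and had a level 2.64 times (1.99 to 3.46) that of the other epithelial-like cells. Wnt6, the gene next to Wnt10a on chromosome 1, had 4 UMIs in the whole tumor.

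Porcn (chrX:8193848-8206525, minus strand) stood at 90.3 CPM in epithelial-like cells and 29.4 CPM in the others, a ratio of 3.07 (2.39 to 3.99), and 39.9% of epithelial-like cells had at least 1 UMI. In monocyte/macrophage-like cells 2.94% of cells had one, at 8.69 CPM (3.75 to 17.1). The endothelial-like cells stood at 67.9 CPM (38.8 to 110), an interval that overlaps the 90.3 CPM (85.9 to 94.7) of the epithelial-like cells. Epithelial markers summed to 4245 CPM in that endothelial-like cluster, and their part in its Porcn level was not tested. The epithelial-like clusters spread from 37.7 CPM (28.0 to 49.7) in cluster 8 to 156 CPM (140 to 173) in cluster 2, where Porcn was itself 1 of the 10 leading genes. Clusters 1, 3 and 5 followed at 105, 99.8 and 95.2 CPM with overlapping intervals. The level in cluster 2 was 1.93 times (1.71 to 2.17) that of the other epithelial-like cells. Among the epithelial-like clusters Porcn thus had its lowest level in the one with the most Wnt4. Its interval there overlapped that of cluster 6, at 47.3 CPM (37.7 to 58.5).

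Wnt4 (chr4:137277489-137299726, plus strand), a ligand known from kidney and female reproductive tract development, was shared between compartments. It stood at 47.1 CPM in epithelial-like and 74.3 CPM in other cells, a ratio of 0.63 (0.54 to 0.75). By cluster it spread more widely than that ratio shows. Cluster 8, led by Dmbt1, Lcn2, Sftpd and Mmp7, had 219 CPM (195 to 246), and 60.4% of its cells had a UMI. The mesothelial-like cluster 10 had 174 CPM (135 to 220), the stromal-like cluster 11 had 151 CPM (112 to 199), and cluster 4, led by Tff3, Ly6d and Reg1, had 125 CPM (109 to 144), each overlapping its neighbour in this order. The other 6 epithelial-like clusters lay between 12.7 and 34.3 CPM. Of the 1017 Wnt4 UMIs of the tumor, cluster 8 held 28.6% and cluster 4 held 19.96%. In cluster 8 the level was 6.54 times (5.66 to 7.55) that of the other epithelial-like cells. Macrophage-like cells were lowest, with 8.69 CPM (3.75 to 17.1).

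Wnt5a (chr14:28504750-28527448, plus strand), the ligand best known for β-catenin-independent signalling, was highest in stromal cells. It stood at 69.3 CPM (43.9 to 104) in the stromal-like cluster, from 23 UMIs in 67 cells, and this did not overlap the second level, 23.0 CPM (10.5 to 43.6) in the mesothelial-like cluster. The epithelial-like cells as a whole had 6.25 CPM against 16.3 CPM in the rest, with a ratio of 0.38 (0.26 to 0.57). Even so, 113 of its 149 UMIs lay in epithelial-like cells, which are far more numerous. Clusters 5, 6 and 7 gave 26, 28 and 42 of these 113, at 9.20, 15.8 and 22.1 CPM, while the other 5 epithelial-like clusters lay between 0.68 and 2.23 CPM. Cluster 7, the one named from 3 of 11 markers, was led by Inhba, Bmp2, Ptgs2 and the metalloproteinases Mmp10 and Mmp13. Wnt5a was there 5.04 times (3.36 to 7.48) as high as in the other epithelial-like cells, and without this cluster the remaining epithelial-like cells had 4.38 CPM.

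Sfrp1 (chr8:23411502-23449632, plus strand) was nearly confined to the stromal-like cluster, of which it was 1 of the 10 leading genes. That cluster held 273 of its 308 UMIs, at 822 CPM (728 to 926), and 65.7% of its cells had at least 1. The mesothelial-like cluster came next at 15.3 CPM (5.62 to 33.4). In epithelial-like cells the level was 1.49 CPM from 27 UMIs, of which 17 were in cluster 6, at 9.57 CPM (5.57 to 15.3). Cluster 6 was therefore the epithelial-like cluster with the highest Wnt7b and Sfrp1, and level with cluster 8 in Wnt7a, while its stromal markers summed to 31.5 CPM, within the range of 24.9 to 44.2 CPM over the epithelial-like clusters.

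Axin2 (chr11:108920349-108950783, plus strand) was scarce in every class. It had 81 UMIs in the tumor, with 21.1 CPM (8.48 to 43.4) in stromal-like cells from 7 UMIs, 15.3 CPM (5.62 to 33.4) in mesothelial-like cells from 6 UMIs, and 3.59 CPM (2.77 to 4.58) in epithelial-like cells from 65 UMIs. Epithelial-like cells were lower than the others by a ratio of 0.50 (0.28 to 0.92), just past 2-fold, and this call was lost under 4 of the alternatives tried. In the epithelium cluster 7 was highest at 8.42 CPM (4.81 to 13.7) and cluster 6 followed at 7.32 CPM (3.90 to 12.5), with overlapping intervals. Clusters 4 and 8, the ones rich in Wnt4, were lowest, each with 1 UMI, at 0.62 CPM (0.02 to 3.44) and 0.75 CPM (0.02 to 4.20).

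Lgr5 (chr10:115450311-115587780, minus strand), a stem cell marker of the gut, had 58 UMIs. The epithelial-like cells stood at 2.87 CPM and the others at 2.72 CPM, a ratio of 1.06 (0.45 to 3.01), so a difference was not detectable at this depth. Cluster 6 had 6.19 CPM (3.09 to 11.1) from 11 UMIs, 2.46 times (1.14 to 4.88) the other epithelial-like cells. Cluster 8 had 0 UMIs.

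Ctnnb1 (chr9:120929216-120960507, plus strand) was seen in every cluster and in 80.6% of epithelial-like cells. β-catenin has another role in adherens junctions, and its activity in signalling is set by protein stability, which RNA counts do not measure. The level was 331 CPM in epithelial-like and 251 CPM in other cells, a ratio of 1.32 (1.21 to 1.44). Clusters 6, 4 and 8 stood highest at 591, 586 and 490 CPM, and cluster 5 at 169 CPM (154 to 185) overlapped the macrophage-like cluster 9 at 164 CPM (136 to 196). The 3 genes most like Ctnnb1 across the 14 clusters were Cldn3, Tmc4 and Ergic3, with r from 0.92 to 0.94. The end of Ctnnb1 overlaps Ulk4, which had 5 UMIs in cluster 6 and 9 in the other epithelial-like cells.

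Over all 10 genes, 8 were at least 2-fold higher in their highest epithelial-like cluster than in the other epithelial-like cells, and the same held for 39.7% of the 12123 genes tested. The exceptions were Porcn at 1.93 and Ctnnb1 at 1.95. The clusters were made from these same counts, so this is a description of how the genes were spread and not a test. Median log2 ratios were 1.47 for the 10 genes and 0.84 for all genes tested. Cluster 6 was highest for Wnt7b and Sfrp1, and first with an interval that overlapped the next epithelial-like cluster for Wnt7a, Lgr5 and Ctnnb1. Wnt4 was highest in cluster 8 and Porcn in cluster 2. Cluster 7 came first for Wnt5a and Axin2 and cluster 5 for Wnt10a, again with overlap of the next epithelial-like cluster.

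A UMI of any of the 5 ligands was present in 53.9% of epithelial-like cells (1256 of 2331, exact binomial 51.8 to 55.9%) and in 4.62% of monocyte/macrophage-like cells (2.33 to 8.12%). The macrophage-like share is given as a background, and how much of it is free RNA was not tested. With every cell thinned to 2500 UMIs the shares were 28.7% and 2.52%. After thinning, cluster 8 had 53.7% (47.0 to 60.4%), cluster 6 had 43.2%, cluster 4 had 34.9% and cluster 1 was lowest with 17.3%. Most ligand-bearing epithelial-like cells had a single kind of ligand, 822 cells, while 338 had 2 different ones, 91 had 3, 3 had 4 and 2 had all 5. The most frequent pairs were Wnt4 with Wnt7b in 162 cells and Wnt7a with Wnt7b in 160 cells. Detection fell with depth, so a cell counted with a single ligand may hold others. No expected number of pairs was computed, and pairing was not tested.

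The second comparison set fibroblasts against carcinoma cells as sources of ligand and inhibitor. In the stromal-like cells Sfrp1, Wnt5a, Axin2 and Wnt4 were at least 2-fold higher than in epithelial-like cells, and Wnt7b, Porcn and Wnt7a at least 2-fold lower. These were 4 and 3 of the 10 genes, beside 15.6% of all genes tested higher and 14.9% lower. The 3 lower ones, with 3, 7 and 4 stromal-like UMIs, passed the minimum only through the epithelial-like cells, so the counts are a description. Sfrp1 had a ratio of 551 (371 to 852), Wnt5a of 11.1 (6.76 to 17.5), Axin2 of 5.87 (2.27 to 12.8) and Wnt4 of 3.19 (2.35 to 4.25). Wnt7b at 9.04 CPM had a ratio of 0.17 (0.04 to 0.51), Porcn at 21.1 CPM of 0.23 (0.09 to 0.48), and Wnt7a at 12.05 CPM of 0.42 (0.12 to 1.09), an interval that reaches past 1. Wnt10a was 0 of 331964 stromal-like UMIs, which allows up to 9.04 CPM, so no fold could be given. Among the 67 stromal-like cells, smooth muscle and pericyte markers summed to 3458 CPM, and their part in these ratios was not tested.

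**Figure D2:**
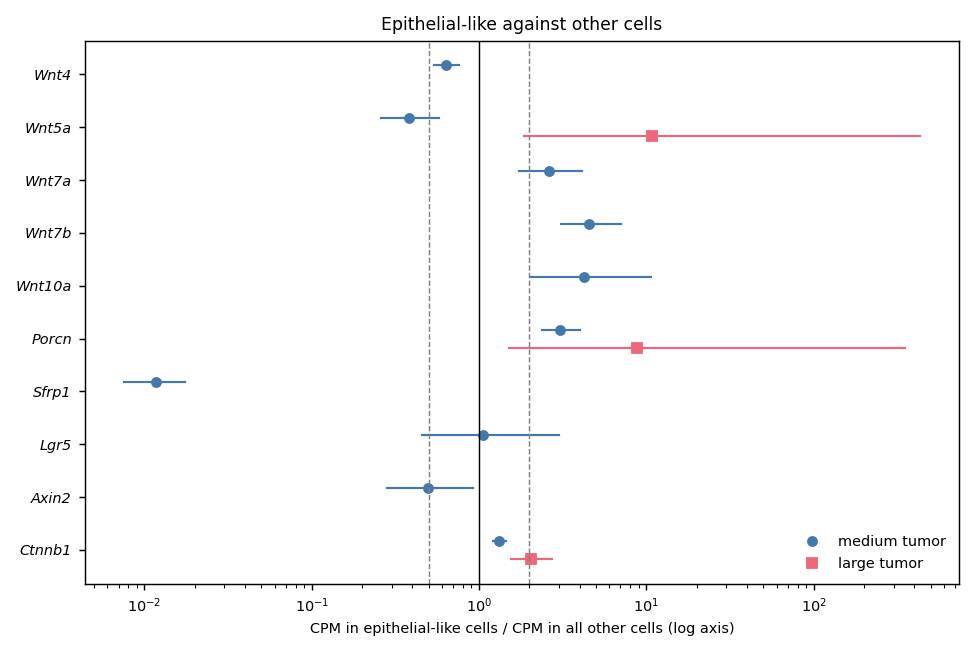
Ratio of CPM in epithelial-like cells over CPM in all other cells (x axis, log scale) for each Wnt gene (y axis) in the medium tumor (circles) and the large tumor (squares), with exact 95% intervals for counting error and dashed lines at 2-fold. Genes with under 20 UMIs or with 0 UMIs in either group are not drawn. Wnt5a stood at 0.38 in the medium and at 10.7 in the large tumor.

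Other genes of the pathway were taken from a list of 82 Wnt genes that includes the 10. Of the 58 with 20 or more UMIs, 15 were at least 2-fold higher in epithelial-like than in other cells of the medium tumor and 15 lower, beside 14.7% and 14.3% of all genes tested, with a median log2 ratio of 0.20 against 0.17 for all genes. These counts include genes that passed the minimum only through the group in which they were high, and they are a description. The other ligands were scarce. Wnt2 had 62 UMIs, with 54.2 CPM in stromal-like and 1.82 CPM in epithelial-like cells, a stromal-like over epithelial-like ratio of 29.7 (15.8 to 54.4), and Wnt3a, Wnt8a, Wnt8b and Wnt9b had 0 UMIs in the medium tumor. Wls, the carrier that acts after Porcn, did not share Porcn's epithelial bias, at 97.5 CPM in epithelial-like, 97.8 CPM in monocyte/macrophage-like and 295 CPM in stromal-like cells.

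Of the 11 secreted inhibitors 5 had 20 or more UMIs, Sfrp1, Sfrp2, Dkk2, Dkk3 and Notum. Each was at least 2-fold lower in epithelial-like than in other cells, beside 14.3% of all genes tested, but Sfrp2, with 4 epithelial-like and 54 other UMIs, and Dkk3, with 18 and 74, passed the minimum only through the cells in which they were high, so the count shows nothing of the group. Dkk3 stood at 142 CPM and Dkk2 at 151 CPM in stromal-like cells, against 0.99 and 8.29 CPM in epithelial-like cells. Sfrp2 was highest in the mesothelial-like cluster, at 135 CPM there and 0 UMIs in the stromal-like cluster. In the large tumor Dkk2 had 36 UMIs in epithelial-like cells and 1 in the others. Its ratio of 5.15 (0.87 to 209) had an interval that reaches below 1, so no direction was shown. Sfrp1 and Sfrp2 were lower in the epithelial-like cells of the large tumor too. All these inhibitors passed the minimum there only through the group in which they were high, so their calls support nothing. Within the epithelium Dkk2 had its highest level in cluster 7, at 50.5 CPM, which also came first in Wnt5a and Axin2.

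Receptors were seen in both compartments. Fzd1 stood at 241 CPM in stromal-like and 11.1 CPM in epithelial-like cells, a ratio of 21.7 (16.5 to 28.2), and the Wnt co-receptors Ryk and Ptk7 were 5.57 and 5.18 times as high in stromal-like cells. Fzd5, Fzd6 and Lrp5 had epithelial-like over other ratios of 2.03 (1.04 to 4.53), 2.13 (1.16 to 4.34) and 2.35 (1.46 to 4.00), although Fzd5 stood at 10.2 CPM in mesothelial-like against 8.29 CPM in epithelial-like cells. Fzd8 had a ratio of 2.14 (0.55 to 18.3) from 2 UMIs in the other cells, an interval that reaches below 1. Fzd4 was highest in endothelial-like cells, at 17.0 CPM, and Ror1 in mesothelial-like cells, at 25.5 CPM, with epithelial-like over other ratios of 0.08 (0.03 to 0.20) from 8 against 13 UMIs and 0.38 (0.19 to 0.79). Fzd2, Fzd7 and Lrp6 lay within 2-fold, at ratios of 0.59, 0.66 and 1.15. In the R-spondin arm, Rspo1 was highest in the mesothelial-like cluster, with 243 CPM there and 3 UMIs in the epithelial-like cells. The receptors Lgr4 and Lgr6 had epithelial-like over other ratios of 1.76 (1.19 to 2.74) and 3.29 (1.25 to 12.3). The ubiquitin ligase Rnf43, which removes Frizzled receptors, had one of 3.72 (1.68 to 10.3). Lgr6 and Rnf43 had 4 and 6 UMIs in the other cells and passed the minimum only through the epithelial-like cells.

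Of the 11 cytoplasmic genes, 10 lay within 2-fold between epithelial-like and other cells, Axin2 being the exception. The same held for 9002 of all 12681 genes tested. Csnk1a1, Gsk3b and Apc, which encode parts of the destruction complex, had ratios of 1.17, 1.16 and 1.30. Of 6 nuclear factors tested, Bcl9 at 2.42 (1.47 to 4.28) and Pygo2 at 2.64 (1.49 to 5.18), cofactors of β-catenin, were at least 2-fold higher, beside 14.7% of all genes tested. Both passed the minimum only through the epithelial-like cells, with 16 and 12 UMIs in the others. In endothelial-like cells both stood at 17.0 CPM, against 17.5 CPM for Bcl9 and 14.4 CPM for Pygo2 in epithelial-like cells. Tcf7l2 had a ratio of 0.79 and Bcl9l one of 1.59. Of 13 target genes tested, 4 were at least 2-fold higher and 4 lower in epithelial-like cells, beside 14.7% and 14.3% of all genes tested. Of these, Nkd1 with 8 epithelial-like and 59 other UMIs and Nkd2 with 8 and 27 passed the minimum only through the cells in which they were high. The 4 higher ones other than Ccnd1 passed it only through the epithelial-like cells, so the counts show nothing of the group. Axin2, Nkd1, Nkd2 and Notum, which encode feedback inhibitors of the pathway, were the 4 lower ones, and in stromal-like cells Nkd1 stood at 111 CPM and Nkd2 at 72.3 CPM against 0.44 CPM each in epithelial-like cells. Ccnd1 (cyclin D1), Rnf43, Ascl2 and Sp5 were the 4 higher ones, and Ccnd1 stood at 412 CPM in epithelial-like against 130 CPM in other cells. Ascl2 had a ratio of 2.85 (0.94 to 14.1) from 3 UMIs in the other cells and Sp5 of 2.62 (0.68 to 22.4) from 2 UMIs, intervals that reach below 1, and Sp5 was highest in mesothelial-like cells, at 5.11 against 2.38 CPM in epithelial-like cells. Cd44 had the highest level in the unnamed cluster 12, at 722 CPM, and a ratio of 1.39 (1.30 to 1.49).

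**Figure D3:**
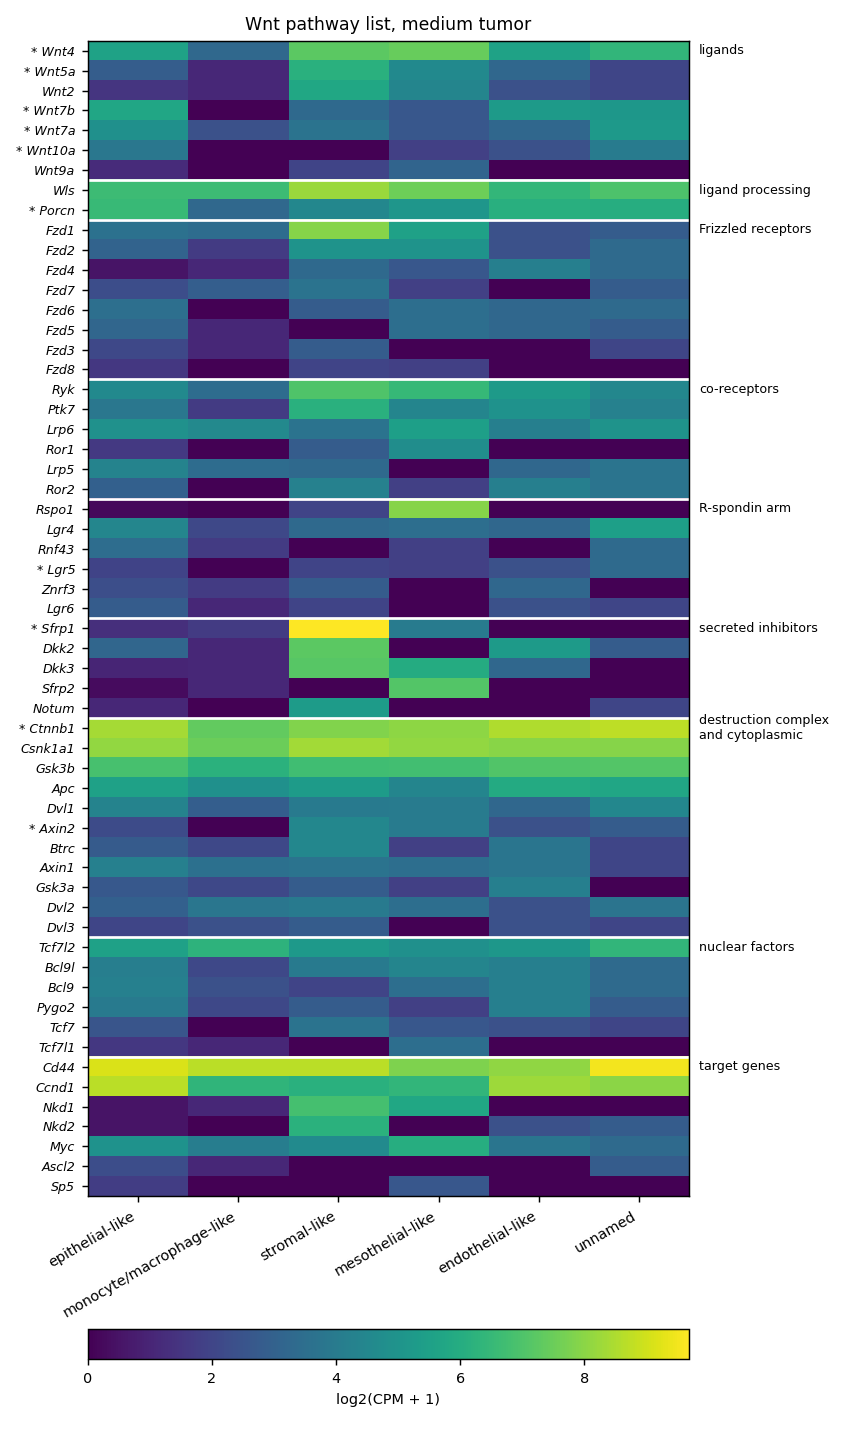
Level of the genes of the Wnt list with 20 or more UMIs in the medium tumor (rows, grouped by role, asterisks on the 10 genes described) in each cell class (columns), as log2(CPM + 1) by colour. Sfrp1, Dkk2, Dkk3, Fzd1, Nkd1 and Nkd2 are brightest in the stromal-like column and Rspo1 and Sfrp2 in the mesothelial-like column.

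The genes most like each of the 10 across the 14 clusters were named for the 7 genes with 200 or more UMIs, out of 7837 genes compared on log2(CPM + 10). For Wnt4 they were H6pd, 0610037L13Rik and Bphl, with r from 0.89 to 0.95. Wnt7a was most like Foxp4, Cldn4 and Hdac11, with r from 0.91 to 0.94, and Hdac11 lies on the same chromosome at chr6:91156665-91174692. The nearest to Wnt7b were Fnbp1l, Rin1 and Ctnnd1, with r from 0.95 to 0.97, and those nearest to Wnt10a were Ube2k, St13 and Polr1d, with r from 0.89 to 0.90. Porcn went with Cystm1, Gadd45gip1 and Anxa10, and Sfrp1 with Fzd1, Mmp2 and Col8a1, each with r from 0.95 to 0.96. These values describe clusters of 1 library and carry no test.

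The third comparison set the epithelial-like cells of the large tumor beside those of the medium tumor, with 1 tumor per size. Wnt5a and Lgr5 were at least 2-fold higher in the large tumor, and Wnt4, Wnt10a, Wnt7b, Wnt7a and Porcn at least 2-fold lower. That is 2 of 10 higher, beside 8.15% of the 12352 genes tested, and 5 of 10 lower, beside 21.6%. Wnt4, Wnt10a and Wnt7a, with 9, 4 and 19 UMIs in the large tumor, passed the minimum only through the medium tumor, so the counts are a description. The median log2 ratio was -1.01 over the 10 genes and -0.19 over all genes tested, and TMM scaling shifted all ratios by 0.16 on the log2 scale without changing the count of genes past 2-fold. The cells of the large tumor were shallower, with a median of 1037 against 5456.5 UMIs, and the part of depth in these ratios was not tested.

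Wnt5a stood at 38.3 CPM (30.1 to 48.0) in the large and 6.25 CPM (5.15 to 7.51) in the medium tumor, a ratio of 6.13 (4.52 to 8.28). Wnt4 stood at 4.59 CPM (2.10 to 8.72) from 9 UMIs against 47.1 CPM (44.0 to 50.4), 10.3-fold lower. These ligands thus differed between the tumors in opposite directions. Wnt7b had 13.3 against 51.7 CPM, Wnt7a 9.70 against 28.4 CPM, Wnt10a 2.04 against 13.5 CPM with 4 UMIs in the large tumor, and Porcn 31.1 against 90.3 CPM, with intervals that did not overlap for any of them. Lgr5 rested on 12 UMIs in the large tumor, at 6.13 CPM (3.17 to 10.7) against 2.87 CPM (2.15 to 3.77), with overlapping intervals and a ratio of 2.13 (1.04 to 4.05). Axin2 was at 2.55 against 3.59 CPM and Ctnnb1 at 409 against 331 CPM, both within 2-fold. With each cell classed by its own markers the log2 ratio of Lgr5 was 0.92, within 2-fold, and that of Axin2 -1.61, past it. Sfrp1 was at 0 UMIs in the epithelial-like cells of the large tumor, which allows up to 1.53 CPM, a limit above the 1.49 CPM of the medium tumor.

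**Figure D4:**
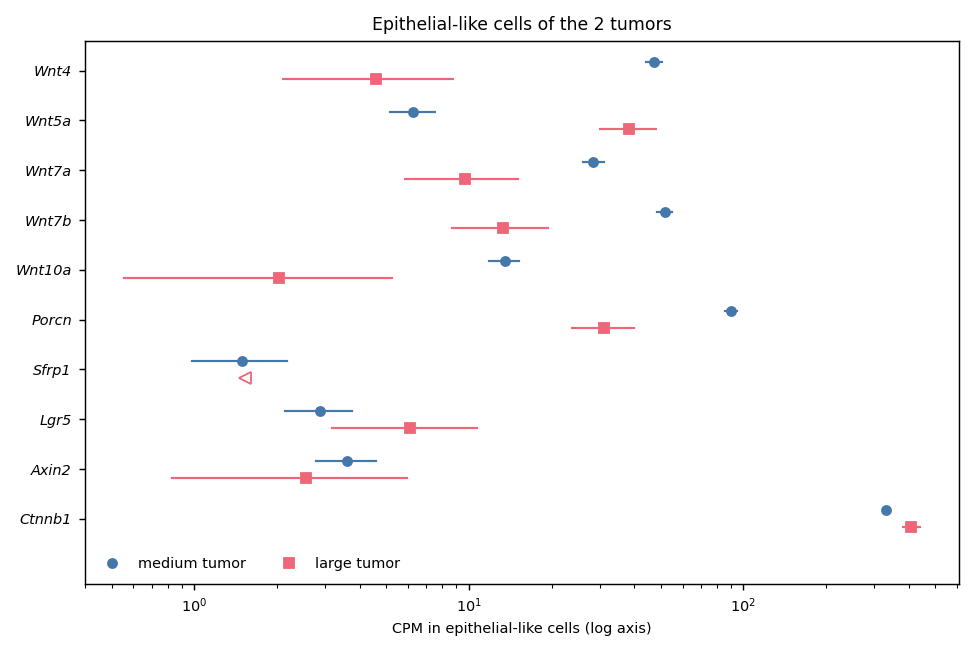
Level of each Wnt gene in the epithelial-like cells (CPM, x axis, log scale) of the medium tumor (circles) and the large tumor (squares), with exact 95% Poisson intervals. The open triangle marks the level that 3 UMIs would give, 1.53 CPM, for Sfrp1, which had 0 UMIs in the large tumor. Wnt5a was 6.13 times as high in the large tumor, and Wnt4 10.3-fold lower.

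The clusters that carry gut markers and those named from few markers bear on these values. Clusters 4 and 6 of the large tumor, 369 cells with enterocyte or goblet markers, had 1 Wnt5a UMI, 2 Porcn UMIs and 0 UMIs of the other 4 ligands, which allows up to 7.99 CPM for each. Without them the ratio of Wnt5a was 7.48 (5.51 to 10.1), that of Wnt4 0.12 (0.05 to 0.23) and that of Porcn 0.41 (0.31 to 0.54). With cluster 1 of the large and cluster 7 of the medium tumor left out, Wnt5a stood at 20.6 against 4.38 CPM, a ratio of 4.69 (2.97 to 7.25), and Wnt7b at 9.29 against 52.5 CPM. The number of genes past 2-fold was 7 under either change.

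In the large tumor the levels per cluster were less precise. Cluster 1, led by Ggct, Ramp1, Hmga2 and Prrx2, held 44 of the 76 Wnt5a UMIs, at 97.5 CPM (70.9 to 131), and 13.98% of its cells had one. The clusters next to it with 50 or more cells were cluster 7, led by the gastric genes Gkn2, Tff1 and Tff2, at 28.0 CPM (12.1 to 55.2), and the cycling cluster 5, at 27.9 CPM (16.2 to 44.6). Wnt7b was also highest in cluster 1 among these, with 12 of 26 UMIs at 26.6 CPM (13.7 to 46.5). Porcn was highest in clusters 7 and 5, at 56.0 CPM (32.0 to 91.0) and 47.5 CPM (31.8 to 68.3), and cluster 3 at 36.7 CPM (15.8 to 72.3) overlapped both. It was at 13.3 CPM (4.88 to 28.9) in cluster 1. Lgr5 had 5 of its 12 UMIs in cluster 7.

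Wnt4 had 14 UMIs in the large tumor, of which 5 lay in the 50 stromal-like cells, at 73.4 CPM (23.8 to 171). Sfrp1 had 22 UMIs, all of them in the stromal-like cluster, at 323 CPM (202 to 489). The stromal-like cells of the medium tumor had 822 CPM (728 to 926), an interval that does not overlap that of the large tumor. Only 1 of the 76 Wnt5a UMIs was stromal-like, at 14.7 CPM (0.37 to 81.8), an interval that overlaps the 69.3 CPM (43.9 to 104) of the medium tumor.

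**Figure D5:**
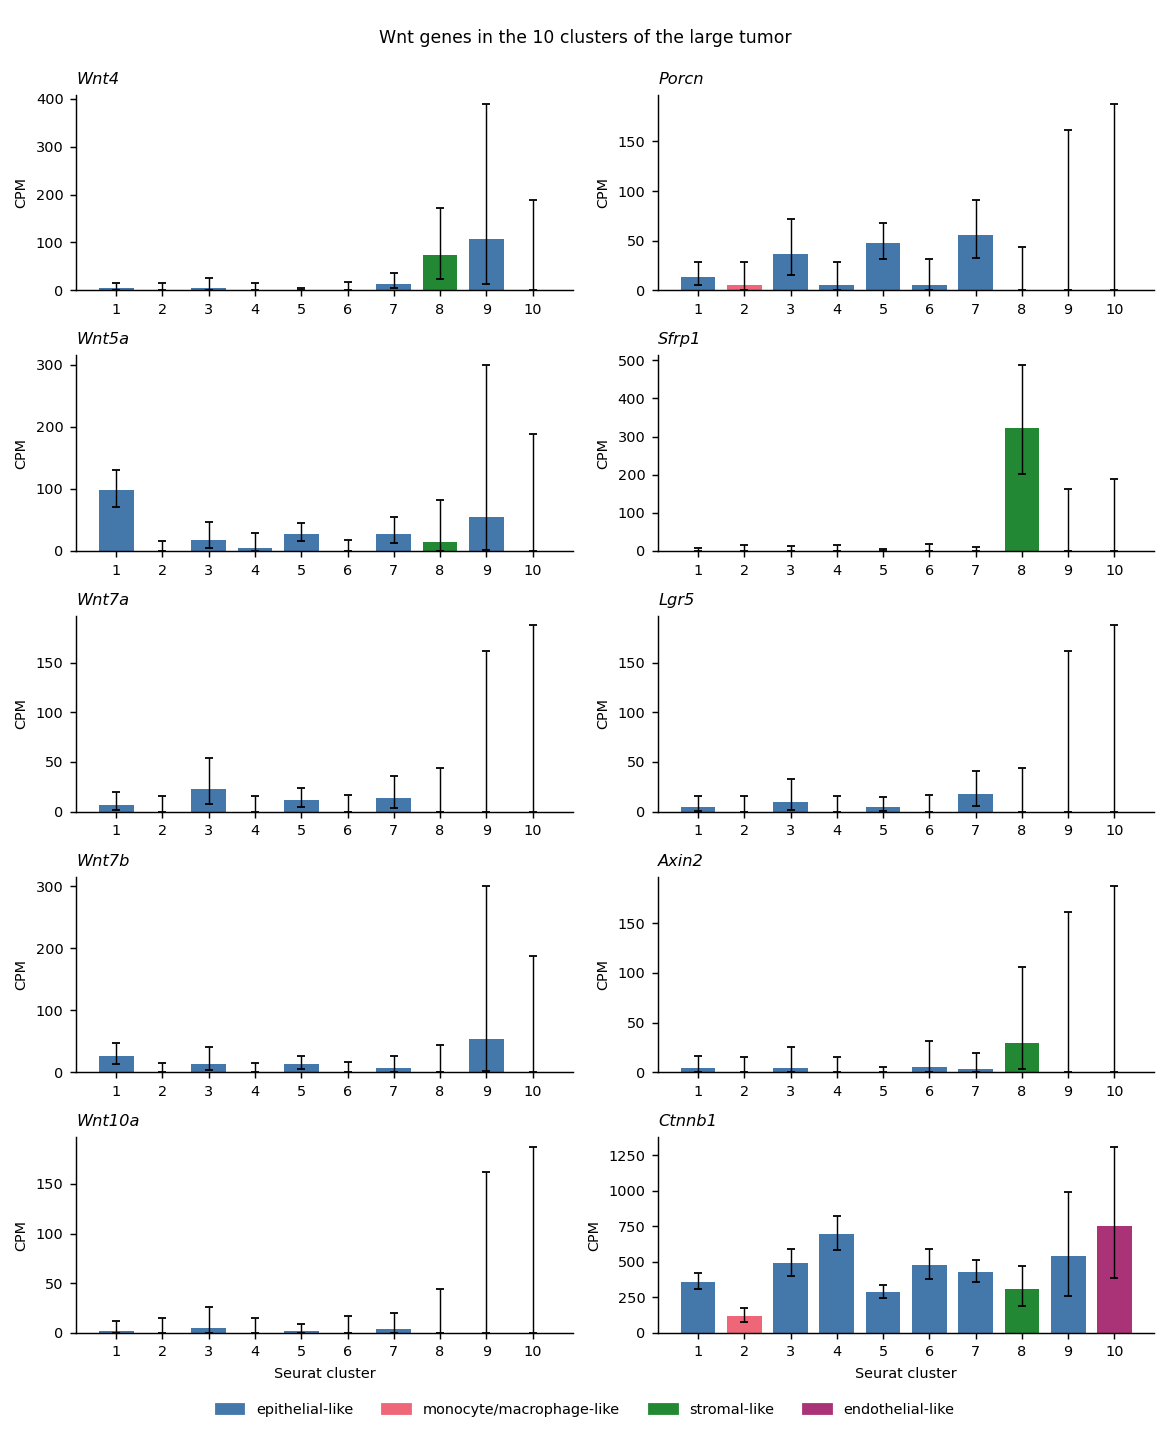
Level of each Wnt gene (CPM, y axis, linear and separate for each gene) in the 10 Seurat clusters of the large tumor (x axis), with bars coloured by cell class and lines for exact 95% Poisson intervals, or up to the level of 3 UMIs where a cluster had 0. Wnt5a was highest in cluster 1 at 97.5 CPM and Sfrp1 in the stromal-like cluster 8 at 323 CPM, and the wide intervals of clusters 9 and 10 come from 17 and 11 cells.

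The first comparison was repeated in the large tumor, where 5 of the 10 genes had 20 or more UMIs. Wnt5a, Porcn and Ctnnb1 were at least 2-fold higher in epithelial-like than in other cells and Sfrp1 at least 2-fold lower, beside 23.3% of all genes tested higher and 11.3% lower. Wnt5a, Porcn and Sfrp1 passed the minimum only through the group in which they were high, so these counts support nothing. Wnt5a had 75 UMIs in epithelial-like cells against 1 in the remaining 314 cells, which made a ratio of 10.7 (1.87 to 430), and Porcn 61 and 1, a ratio of 8.73 (1.51 to 350). Ctnnb1 stood at 409 against 200 CPM, a ratio of 2.05 (1.56 to 2.73), just past 2-fold, and its log2 ratio fell to between 0.45 and 0.87 under 4 of the alternatives tried. Sfrp1 was at 0 UMIs in 1219 epithelial-like cells, which allows up to 1.53 CPM, against 78.5 CPM in the others. Wnt7b had 26 UMIs in epithelial-like cells and 0 in the others, which allows up to 10.7 CPM, so no fold past 2 could be shown.

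The direction of Wnt5a depended on the class given to cluster 1. With that cluster left out the log2 ratio of epithelial-like over other cells was 2.53, and with it counted among the other cells it was -1.58. At a clustering resolution of 1.2, which left 122 cells unnamed, it was -0.28, and with each cell classed by its own markers -0.54. Thinned to 500 UMIs per cell, 3.36% of epithelial-like cells of the large tumor (2.42 to 4.54%) and 8.28% of those of the medium tumor (7.19 to 9.47%) had a UMI of any of the 5 ligands. At the depth as sequenced these shares were 9.52% and 53.9%. For Wnt5a alone the thinned shares ran the other way, at 1.64% of cells in the large tumor, 20 cells, and 0.17% in the medium tumor, 4 cells. Both are near what 1 UMI in a cell can show at this depth.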

How the data were processed

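Single cells of 2 KPC tumors went through droplet capture and 3′ library construction (10x Genomics, v2). The submitters' processing notes name Cell Ranger and the build mm10 (version not given in the sources used here), and the authors deposited UMI counts per gene and cell barcode, whole numbers without normalization, as 1 table per tumor that pools 4 technical replicates. A 3′ count reads the end of a transcript, so levels were compared between groups of cells and not between genes. Each tumor was clustered on its own with Seurat 5.3.0 in R 4.3.3 (log normalization to 10000, 2000 variable genes, 10 principal components, as in the study's methods, and a resolution of 0.8), on all barcodes. Scrublet, run through scanpy 1.11.5, called 0 cells of the medium and 9 (0.587%) of the large tumor, and no cell was removed, so doublets may be present in both.

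A marker counted in a cluster when 10% of its cells and 25% of the level of the highest cluster were reached. A class needed 3 markers, and a cluster with 60% of another class's markers stayed unnamed. Gut clusters were those with 50% of the enterocyte or goblet list. These thresholds were set after marker values had been seen, and the genes described and all lists were chosen with earlier results of these data known. Counts were summed over cells, ratios were given exact intervals with scipy 1.17.1, and a gene was called past 2-fold with 20 or more UMIs. With 1 tumor per size no test was run. The ratio and its interval were tested on simulated data. TMM factors came from edgeR 4.0.16. Named were all 10 genes in every class, and for genes with 200 or more UMIs the 3 with the highest r. Of the other Wnt genes, the 4 highest per role and those past 2-fold between epithelial-like and other cells of the medium tumor were named. Not all those past 2-fold between the tumors were named. Gene positions came from GENCODE M21 (GRCm38) and promoters from RefSeq (GRCm38.p6), which matched 4 of the 10 genes. Other clusterings, markers per cell, doublet scores, thinning, UMI minimums, per-cell means and left-out clusters were tried as alternatives. The full genotype of the strain is not reported here.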

Additional observations from a re-analysis of the deposited data

Results flagged for a closer look

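With the classes as named, Wnt5a had opposite directions in the 2 tumors. Its log2 ratio of epithelial-like over other cells was -1.385 in the medium tumor, from 113 against 36 UMIs, and 3.424 in the large tumor, from 75 against 1 UMI. The difference was not tested, since each size is 1 tumor. The opposite direction was lost under 3 alternatives, where the large tumor had -0.275, -0.544 and -1.581, the sign of the medium tumor. In the large tumor 44 of the 75 epithelial-like UMIs lay in cluster 1, which was named from 3 of 11 epithelial markers and in which stromal markers summed to 13.3 CPM. In the medium tumor 23 of the 36 UMIs outside the epithelium lay in 67 stromal-like cells, and the large tumor had 50 stromal-like cells with 1 Wnt5a UMI.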

How the results depend on the processing

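No paired analysis was possible because the technical replicates of a tumor are pooled in 1 table whose columns carry no replicate number, and no result comes from a test. For the same reason no replicate could be left out. The number of genes past 2-fold between epithelial-like and other cells of the medium tumor was 7 and ranged from 5 to 7 under the other settings, except 4 with cluster 7 counted among the other cells, a setting added after the data were seen. In the large tumor that number was 4, and 2 at a resolution of 1.2, 3 under 4 other settings (cells classed by their own markers, a minimum of 50 UMIs, cluster 1 counted among the other cells, gut clusters left out) and 6 with no minimum. Wnt5a there turned from 3.42 to -0.275 at that resolution, to -0.544 with cells classed by their own markers, and to -1.581 with cluster 1 counted among the other cells (log2). The share of epithelial-like cells of the medium tumor with a ligand UMI fell from 53.88% to 28.66% with cells thinned to 2500 UMIs. The cause was not tested in any of these beyond the setting's own construction. The stromal-like comparison could not be made at a resolution of 0.4 or with 20 principal components, where no stromal-like cluster formed. Of 484 log2 ratios of single genes recomputed, 463 stayed on their side of 2-fold, 18 crossed it and the 3 of Wnt5a above reversed. Leaving the Wnt list out of the clustering changed no number of genes past 2-fold. In the large tumor Wnt4, Wnt7a, Wnt10a, Lgr5 and Axin2 had under 20 UMIs, which limits the precision of their levels, and the part of depth was not tested.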

Other observations

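Cluster 12 of the medium tumor, 64 cells with 10 of 11 epithelial and 8 of 11 monocyte/macrophage markers, was left unnamed. Its Wnt4 level was 82.3 CPM (54.2 to 120), its Wnt7a level 36.6 CPM (18.9 to 63.9), its Wnt7b level 33.5 CPM (16.7 to 60.0) and its Porcn level 64.0 CPM (39.6 to 97.8). For these genes and Ctnnb1 the intervals did not overlap those of the macrophage-like cluster 9. For Wnt5a, Wnt10a, Sfrp1, Lgr5 and Axin2 they did. No share over all genes was computed, so this is a description. The part of the epithelial markers of cluster 12 in these levels was not tested. Lgr5 stood at 9.14 CPM (1.89 to 26.7) in cluster 12, from 3 UMIs.

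Among the other genes of the pathway list, Fzd5, a Frizzled receptor, was 4.62 times (3.45 to 6.13) as high in the epithelial-like cells of the large as of the medium tumor, Ptk7 2.63 times (1.99 to 3.45) and Dkk2, a secreted inhibitor, 2.22 times (1.496 to 3.21). Rnf43 had a ratio of 0.15 (0.03 to 0.45), from 3 UMIs against 183, and the nuclear cofactor Bcl9l one of 0.25 (0.11 to 0.49), from 8 UMIs against 300. Of the 53 genes of the list tested, 6 were at least 2-fold higher and 13 lower, beside 8.15% and 21.6% of all genes tested, with a median log2 ratio of -0.23 against -0.19 for all genes. Rnf43 and Bcl9l passed the minimum only through the medium tumor, so these counts are a description.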
